A study of Equus caballus with 19 samples.

Results

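The genes described here are 10 genes of mitogen-activated protein kinase (MAPK) signalling, out of 29196 gene names in the RNA sequencing tables of equine tenocytes exposed to interleukin 1 beta (IL-1β). They are the dual-specificity phosphatases *DUSP1*, *DUSP4*, *DUSP5*, *DUSP6* and *DUSP10*, the Sprouty genes *SPRY2* and *SPRY4*, the p38 activating kinases *MAP2K3* and *MAP2K6*, and *MAPK14*, which encodes p38α. They were picked by name after the response to IL-1β was known, so their values between IL-1β and control are given as a description, with no p-value, and support nothing. Each of the 10 names was found in both tables, and each gene passed the filter on low values in both batches.

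MAPK cascades carry a signal from a receptor through a chain of kinases that ends at ERK, JNK or p38. The IL-1 receptor reaches p38 and JNK through the kinase TAK1 (*MAP3K7*), and MAP2K3 and MAP2K6 are the kinases that phosphorylate p38. Dual-specificity phosphatases remove these activating phosphates, and Sprouty proteins restrain the path from growth factor receptors to ERK. Many of these inhibitors are themselves transcribed in response to the pathway they switch off. The sequencing measured mRNA, and phosphorylation of the kinases was not measured in these libraries.

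Tenocytes are the resident cells of tendon. The wild-type cells came post-mortem from the superficial digital flexor tendon of adult Thoroughbred horses, and each line was used after several passages. Lines were seeded in bovine type 1 collagen gels and harvested at day 14. In the first batch, lines 1 to 5 were kept without cytokine (control) or with 1 nM IL-1β, which gave 10 libraries. In the second batch, lines 6 to 8 were kept as control, with 1 nM IL-1β, or with 1 nM IL-1β plus 100 ng/ml of the interleukin 1 receptor antagonist protein IL1Ra, which gave 9 libraries. There was 1 library per line and condition, and no library received IL1Ra alone.

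Values are normalised read counts, which the authors scaled within each batch, so levels were compared only within a batch. The normalised counts of a library summed to 43.4 to 49.2 M in the first batch and 25.0 to 34.6 M in the second, with M for counts × 1e6. A log2-fold change is the difference between group means of log2(normalised count + 1), with its standard error (SE) from limma, and understates the change of genes with few counts. A differentially expressed (DE) gene is one whose mean changed by 1 or more on the log2 scale, in either direction, with an adjusted p under 0.05. The spread behind each test is that between tenocyte lines, without use of the pairing of libraries by line. Where the line is said to be a block, it is the spread that remains after the differences between lines are fitted.

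Among markers of tenocytes, *TNMD* was at 0 in every library but 1, a second-batch control with 1.00 normalised count. *SCX*, a tendon transcription factor, ranged from 822 to 2110 normalised counts in first-batch controls and from 9.69 to 205 with IL-1β. *MKX*, *COL1A1*, *COL1A2* and *THBS4* also had negative log2-fold changes there. *DCN* went the other way, at 0.73 (SE 0.26) in the first batch and 1.61 (SE 0.80) in the second. Summed tenocyte markers ran from 987193 to 1750040 in first-batch controls and from 424747 to 798818 with IL-1β. In the second batch the sums overlapped, from 236898 to 797987 in controls and from 304001 to 458469 with IL-1β. The second-batch controls differed widely among themselves, with 4720, 266 and 105 normalised counts of *SCX* and 4059, 151 and 11.5 of *MKX*, another tendon transcription factor, in lines 6 to 8. Of 6 leukocyte markers 4 were below 10 normalised counts throughout each batch, and *PTPRC* did not exceed 6.46. Summed leukocyte markers, nearly all of them *CD68*, ran from 58.3 to 182 in first-batch controls and from 299.0 to 1384 with IL-1β. Summed pericyte markers, all 4 of which were detected, ran from 6748 to 9580 in first-batch controls and from 823 to 2435 with IL-1β in that batch. In bulk RNA, fewer cells of a type and less RNA per cell cannot be told apart.

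**Figure D1:**
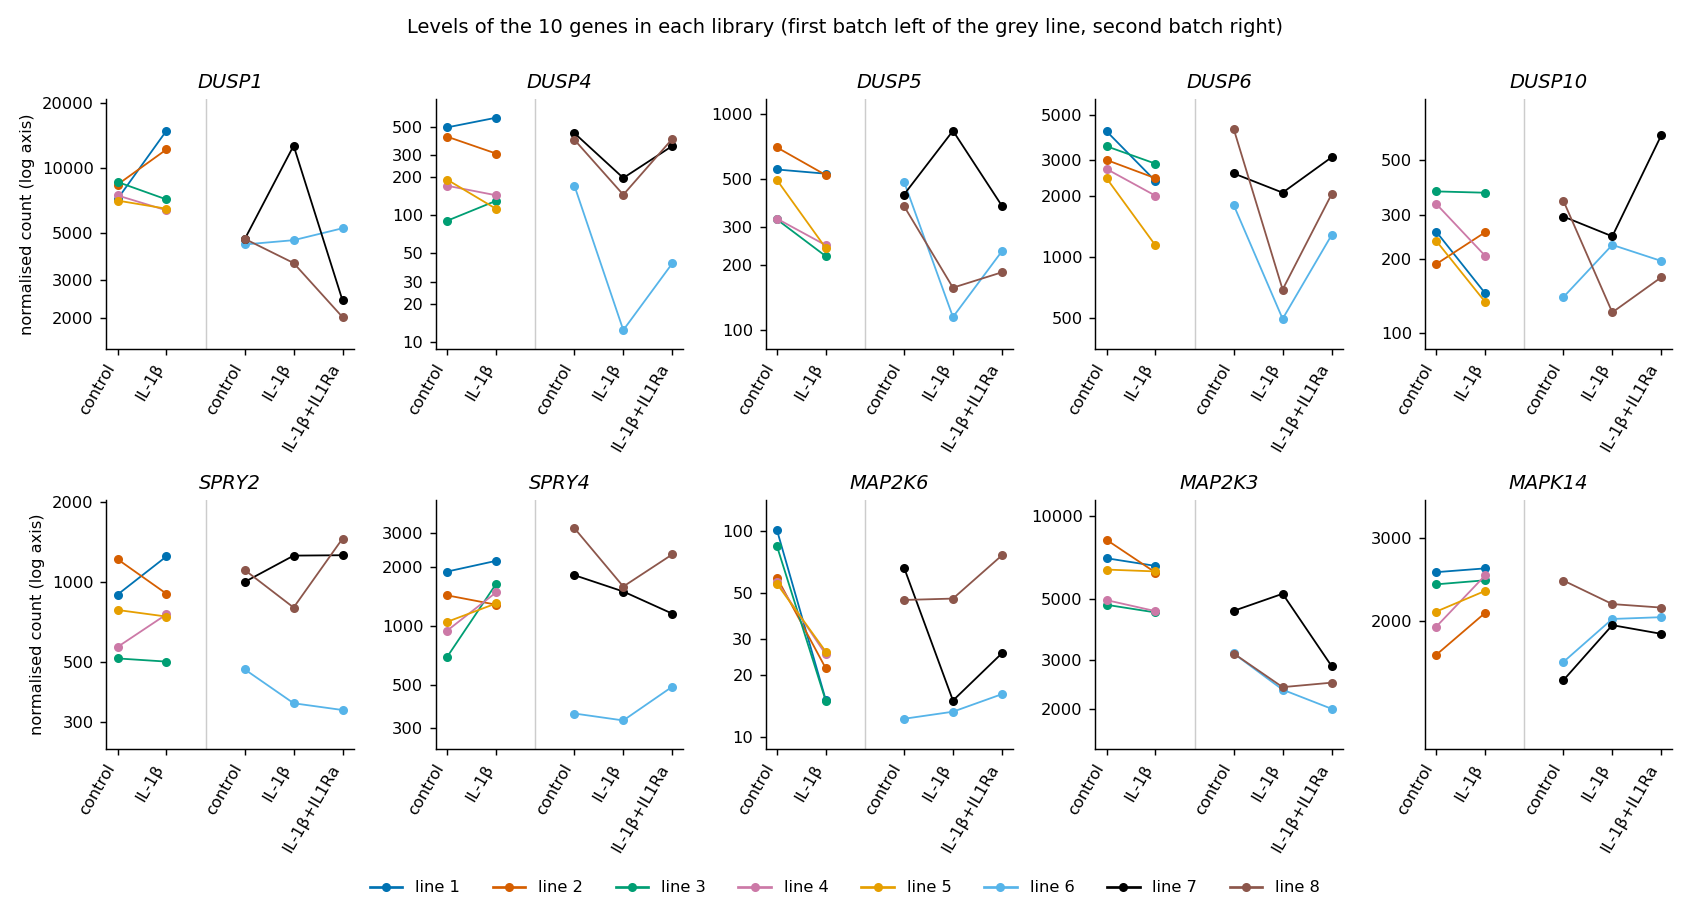
Normalised count (log axis) of each of the 10 genes in every library, by condition, with the first batch left of the grey line and the second batch right of it; points joined by a line are libraries of 1 tenocyte line. *MAP2K6* is lower with IL-1β in all 5 first-batch lines, from 55.3 to 101 down to 15.0 to 25.9, whereas line 6 sits low for *DUSP4*, *SPRY2*, *SPRY4* and *MAP2K6* in the second batch.

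Of the 10 genes, *MAP2K6* alone changed by 1 or more on the log2 scale between control and IL-1β in the first batch, as did 18.1% of all 14719 genes tested. Among second-batch lines *DUSP4* and *DUSP6* did, both downwards, as did 16.6% of 16705 genes. At the thresholds for DE the first batch had 1 of the 10 (*MAP2K6*), beside 12.8% of all genes, and the second had 0, beside 0.341%. Nothing is read from these counts, since the genes were chosen with this comparison known. The median log2-fold change of the 10 genes was −0.14 in the first batch, beside −0.0034 over all genes tested. For the second batch it was −0.41 beside −0.0084. *DUSP5*, *DUSP6*, *MAP2K6* and *MAP2K3* were lower with IL-1β in all 5 first-batch lines, as were 25% of all genes tested, and *MAPK14* was higher in all 5, as were 24.8%.

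*DUSP6* encodes a cytoplasmic phosphatase specific for ERK, and its level was lower with IL-1β in all 8 lines of the study, as for 13.5% of the genes tested in both batches. In controls of lines 1 to 5 its normalised counts were 4149, 2998, 3501, 2708 and 2439. With IL-1β the same lines had 2363, 2439, 2875, 2001 and 1141. Every line was lower, with log2 ratios from −1.10 to −0.28, although the groups overlapped, because the highest IL-1β value lay above the lowest controls. The log2-fold change was −0.59 (SE 0.24). In lines 6 to 8 the controls had 1800, 2575 and 4257 normalised counts and the IL-1β libraries 497, 2072 and 693. The log2 ratio was nearest to 0 in line 7, at −0.31, and farthest from it in line 8, at −2.62. The second-batch log2-fold change was −1.59 (SE 0.57).

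*DUSP5* encodes a nuclear phosphatase that also acts on ERK. First-batch controls measured 555, 702, 326, 329 and 496 normalised counts across lines 1 to 5, while the IL-1β libraries gave 530.5, 523, 220.1, 247 and 240.0. All 5 lines were lower, least in line 1, and the groups overlapped. The log2-fold change was −0.50 (SE 0.33). In lines 6 to 8 controls had 487, 425 and 375 and IL-1β libraries 115, 838 and 157. Line 7 went the other way from lines 6 and 8, and the log2-fold change was −0.78 (SE 0.67).

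*DUSP4* encodes a nuclear, inducible phosphatase of ERK and JNK. In the first batch it had 497, 419.7, 90.8, 172 and 192 normalised counts in controls and 593, 309, 131, 144 and 113 with IL-1β. Lines 1 and 3 were higher and the other lines lower, with a log2-fold change of −0.14 (SE 0.57). Second-batch values were 172, 448 and 397 in controls and 12.4, 198 and 146 with IL-1β. All 3 lines were lower, with log2 ratios from −3.69 to −1.18, as were 18.9% of all genes tested, and the log2-fold change was −2.10 (SE 1.18). The groups overlapped because the control of line 6 was already below the IL-1β library of line 7.

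*DUSP1* and *DUSP10* encode phosphatases that act on p38 and JNK, and neither moved in a common direction across lines. *DUSP1* had 7163, 8355, 8592, 7437 and 7039 normalised counts in first-batch controls, a narrow group. With IL-1β it had 14873, 12168, 7125, 6342 and 6452. It was higher in lines 1 and 2 and lower in lines 3 to 5, so that the SD rose from 710.2 in controls to 3900 with IL-1β (n = 5 lines each), and the log2-fold change was 0.19 (SE 0.23). Second-batch controls had 4402, 4658 and 4675, and IL-1β libraries 4608, 12663 and 3608. Here line 7 stood high, line 6 differed little and line 8 was lower, with a log2-fold change of 0.38 (SE 0.50).

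*DUSP10* had 258, 191, 375, 334 and 237 normalised counts in controls of lines 1 to 5 and 145, 256, 370.1, 206 and 134 with IL-1β. Line 2 was higher and the other 4 lines lower, with a log2-fold change of −0.38 (SE 0.30). The second batch gave 140.2, 297 and 344 in controls and 228, 247 and 122 with IL-1β. Line 6 was higher and lines 7 and 8 lower, with a log2-fold change of −0.35 (SE 0.58).

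*SPRY4* encodes a feedback inhibitor of growth factor signalling to ERK. In lines 1 to 5 it had 1906, 1440, 698, 950.2 and 1054 normalised counts in controls and 2163, 1290, 1649, 1491 and 1309 with IL-1β. It was higher in 4 of 5 lines, most in line 3 by 1.24 on the log2 scale, and the log2-fold change was 0.45 (SE 0.26). In lines 6 to 8 it had 357, 1827 and 3180 in controls and 329, 1506 and 1598 with IL-1β. All 3 lines were lower, with log2 ratios from −0.99 to −0.12, and with a log2-fold change of −0.46 (SE 0.96), so the direction was opposite in the batches. The difference between batches was not tested, and in the second batch the SE was larger than the log2-fold change itself.

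*SPRY2*, which encodes a second inhibitor of the same path, had 898, 1219, 517, 571 and 786 normalised counts in first-batch controls and 1249, 904, 503, 757 and 743 with IL-1β. Lines 1 and 4 were higher and the other lines lower, with a log2-fold change of 0.07 (SE 0.28). Values of the second batch were 471, 1002 and 1111 in controls and 351, 1257 and 803 with IL-1β, and the log2-fold change was −0.19 (SE 0.67). Line 6 was the lowest of the 3 lines in each condition.

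*MAP2K6*, one of the kinases that activate p38, was the gene of the group with the largest change in the first batch. Its normalised counts were 101, 59.2, 84.2, 56.5 and 55.3 in controls of lines 1 to 5 and 15.1, 21.5, 15.0, 25.1 and 25.9 with IL-1β. Every IL-1β library lay below every control, as for 10.2% of all genes tested. The log2-fold change was −1.74 (SE 0.29), and by line it ran from −2.66 to −1.06. Leaving out each line in turn gave −1.91 to −1.51.

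In the second batch *MAP2K6* had 12.3, 66.1 and 46.1 normalised counts in controls and 13.3, 15.0 and 46.8 with IL-1β. Only line 7 was lower, with a log2 ratio of −2.07, and in lines 6 and 8 the ratio was at most 0.11. Line 6 stood low in all 3 conditions, at 12.3 to 16.1 normalised counts. In the first batch *MAP2K6* fell in the same libraries as the summed pericyte markers and the muscle marker *DES*. *DES* had 1079 to 2214 normalised counts in controls there and 29.4 to 189 with IL-1β. The muscle marker *MYH7* had a log2-fold change of −0.29 (SE 0.37), and *CKM* and *ACTA1* did not pass the filter. Second-batch pericyte sums ran from 2414 to 5051 in controls and from 623 to 1291 with IL-1β. *DES* ran from 326 to 1696 and from 2.07 to 93.8, whereas *MAP2K6* was lower in line 7 only. The part of these markers, or of any cell type, in the *MAP2K6* values was not tested.

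*MAP2K3* encodes the other p38 activating kinase. In lines 1 to 5 it had 7047, 8220, 4772, 4962 and 6409 normalised counts in controls and 6608, 6252, 4477, 4526 and 6311 with IL-1β. All 5 lines were lower, with log2 ratios from −0.39 to −0.022, which is small beside the differences between lines, and the log2-fold change was −0.15 (SE 0.18). In lines 6 to 8 the values were 3175, 4537 and 3174 in controls and 2345, 5234 and 2396 with IL-1β, lower in lines 6 and 8 and higher in line 7, with a log2-fold change of −0.21 (SE 0.33).

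*MAPK14*, the gene of p38α itself, had the smallest SE of the 10 genes in each batch. It had 2535, 1691, 2388, 1941 and 2090 normalised counts in first-batch controls and 2582, 2077, 2436, 2494 and 2312 with IL-1β. It was higher in all 5 lines by 0.027 to 0.36 on the log2 scale, with a log2-fold change of 0.17 (SE 0.12), and the groups overlapped. Second-batch controls had 1633, 1493 and 2433 and IL-1β libraries 2016, 1956 and 2168, with a log2-fold change of 0.18 (SE 0.20), or −0.0077 when library sums were made equal. Lines 6 and 7 were higher and line 8, which had the highest control, was lower.

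**Figure D2:**
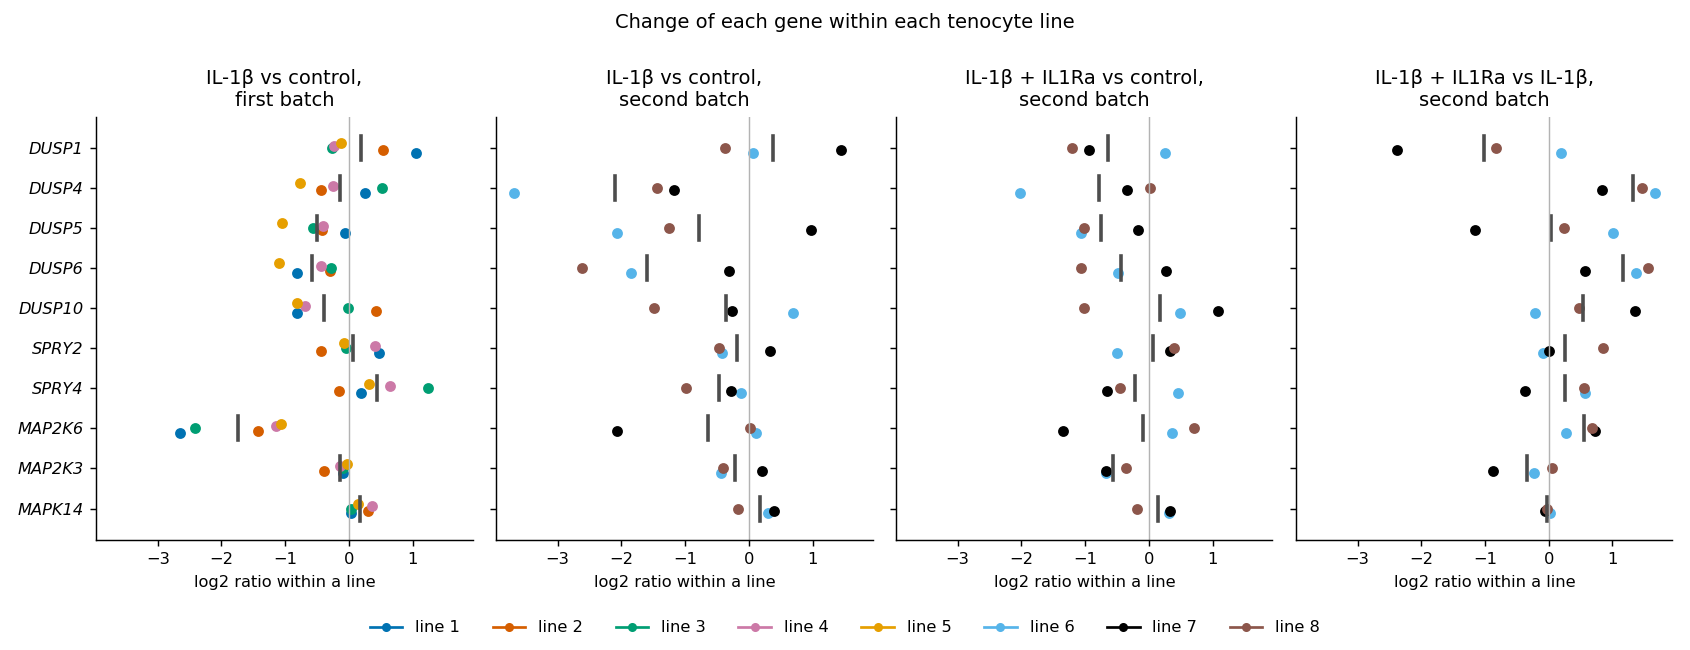
Log2 ratio within each tenocyte line (x axis) for each of the 10 genes (y axis), with 1 panel per comparison and 1 point per line. For *DUSP6* all 5 first-batch points and all 3 second-batch points for IL-1β against control lie below 0, and all 3 for IL-1β + IL1Ra against IL-1β lie above 0.

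The third condition of the second batch asks how far blocking the IL-1 receptor brings these genes back. Comparisons with it share the control or the IL-1β libraries with the comparison above, so their values are set side by side and not correlated. The 10 genes were picked with the values of those shared libraries known. The intervals and p-values below are therefore not independent of the choice of genes, and an interval that leaves out 0 is no separate support for a return. With IL-1β + IL1Ra, 0 of the 10 genes were DE against control and 0 against IL-1β by limma, and 0 had an unadjusted p under 0.05 in either. The background of DE genes was 0.012% of 16705 genes against control and 0% against IL-1β. An unadjusted p under 0.05 was found for 948 genes (5.67%) against control and 464 (2.78%) against IL-1β. Blocking on the tenocyte line, the counts of DE genes among the 10 stayed at 0, beside 0.251% of all genes against control and 0.00599% against IL-1β. With the block, 1 of the 10 had an unadjusted p under 0.05 against control and 2 against IL-1β, beside 13.4% and 8.38% of all genes. Every adjusted p of the 10 was 1.00 in both comparisons (limma with Benjamini-Hochberg adjustment), and with the block the smallest were 0.293 for *MAP2K3* against control and 0.456 for *DUSP6* against IL-1β.

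In lines 6 to 8 given IL-1β + IL1Ra, *DUSP6* stood at 1281, 3089 and 2032 normalised counts. Each was above the IL-1β library of its line, by 0.58 to 1.55 on the log2 scale, as for 15.6% of all genes tested, and the groups overlapped. The log2-fold change against IL-1β was 1.16 (SE 0.57, 95% confidence interval −0.15 to 2.47). With the line as a block the interval was 0.28 to 2.04, with an adjusted p of 0.456 (limma). Against control it was −0.43 (SE 0.57, interval −1.74 to 0.88), with line 7 above its control and lines 6 and 8 below.

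With IL1Ra added, *DUSP4* stood at 41.7, 354 and 403 normalised counts, again above IL-1β in each line. The log2-fold change against IL-1β was 1.32 (SE 1.18, interval −1.38 to 4.03, or 0.18 to 2.47 with the line as a block, where the adjusted p was 0.509 by limma), and against control −0.78 (SE 1.18, interval −3.48 to 1.92). Lines 6 and 7 stayed below their controls and line 8 was close to its own, at 403 against 397.

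*MAP2K6* was the third gene that was higher than with IL-1β alone in all 3 lines, at 16.1, 25.4 and 75.8 normalised counts, with a log2-fold change of 0.56 (SE 0.83, interval −1.35 to 2.46). In line 7, the line in which it had been lower with IL-1β, it stayed below the control value of 66.1.

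With IL1Ra added, *DUSP1* stood at 5236, 2418 and 2023 normalised counts, a log2-fold change of −1.01 against IL-1β (SE 0.50, interval −2.16 to 0.13) and −0.63 against control (SE 0.50, interval −1.78 to 0.51). Lines 7 and 8 were below both other conditions and line 6 above both. *DUSP5* had 232, 377 and 185 normalised counts, below control in all 3 lines, as were 19% of all genes tested, with a log2-fold change of −0.75 against control (SE 0.67, interval −2.30 to 0.80). Against IL-1β the difference in *DUSP5* was 0.03 (SE 0.67). *DUSP10* had 196, 631 and 169 normalised counts, with line 7 alone far above its other conditions, and log2-fold changes of 0.53 against IL-1β (SE 0.58, interval −0.79 to 1.85) and 0.18 against control (SE 0.58).

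*SPRY2* had 331, 1262 and 1457 normalised counts and *SPRY4* 490.2, 1161 and 2332 with IL-1β + IL1Ra. Their log2-fold changes against IL-1β were 0.26 (SE 0.67, interval −1.28 to 1.80) and 0.25 (SE 0.96, interval −1.95 to 2.44). For both genes the lines did not share a direction.

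*MAP2K3* stood at 1999, 2860 and 2487 normalised counts with IL1Ra added. All 3 lay below all 3 controls, as for 5.96% of all genes tested, with a log2-fold change of −0.56 against control (SE 0.33, interval −1.32 to 0.20, or −1.03 to −0.091 with the line as a block). *MAPK14* had 2033, 1874 and 2131 normalised counts, a difference of −0.02 from IL-1β (SE 0.20, interval −0.48 to 0.43).

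Differences between lines were large for several of these genes, and the share of each gene's variation within conditions that lay between lines was computed after the values were seen, as a description with no test. In the second batch the lines accounted for 94.9% of this variation in *SPRY4*, 91.1% in *SPRY2* and 87.0% in *DUSP4*, and the median over all genes tested was 61.1%. Line 6 was the lowest of the 3 lines in every condition for each of these genes. Without line 6 the shares were 71.8%, 5.84% and 23.7%, so those of *SPRY2* and *DUSP4* rest on that line, whose control had the most *SCX* and *MKX* of the batch.

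In the first batch lines accounted for 94.5% of the variation within conditions in *MAP2K3* and 93.3% in *DUSP4*, where the median over all genes was 75.8%. Leaving out each line in turn gave 91.5% to 99.4% and 87.9% to 95.8%. *DUSP4* ran from 90.8 in line 3 to 497 in line 1 among controls, a 5.43-fold range beside a median of 1.62-fold over all genes, and lines 1 and 2 were the highest both in controls and with IL-1β. *MAP2K6* lay at the other end: lines accounted for 2.38% of its variation within conditions, and the lines with the highest controls, 1 and 3, had the lowest IL-1β values. With quantile normalisation its share was 29.3%, and in the second batch it was 74.8%, above the median of that batch.

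**Figure D3:**
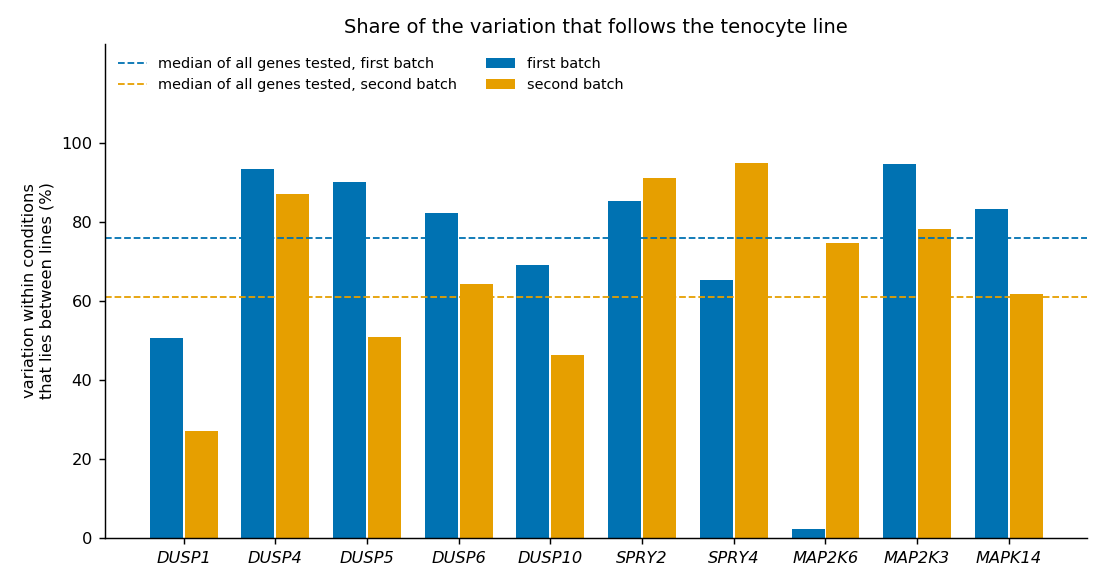
Share of the variation within conditions that lay between tenocyte lines, in percent, for each of the 10 genes in the first and second batch (bars), with the median of all genes tested in each batch as a dashed line (75.8% and 61.1%). *DUSP4* stands above the median in both batches, at 93.3% and 87.0%, and *MAP2K6* has 2.38% in the first batch.

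The rest of the pathway was described from 7 lists holding 52 further genes of the p38, ERK and JNK cascades, of which 51 were tested. The lists were chosen for known roles but with earlier results of these data known. The p-values of listed genes here and below are therefore not independent of that choice. In the first batch 6 of the 51 were DE between IL-1β and control, 5 upwards and 1 downwards, beside 12.8% of all genes, and 19 had an adjusted p under 0.05, beside 27.7% of all genes. The count of DE genes was 4 without line 3 or line 4 and 5 without line 1 or line 5. *SPRY3* and *IER3* stayed DE without any 1 line, whereas *DUSP16* was lost without line 3, 4 or 5, *MKNK2* without line 3 or 4, *RPS6KA5* without line 1 and *ETV4* without line 4. The median log2-fold change of the lists together was −0.013. Of the same 51, 0 were DE in the second batch by limma and 7 had an unadjusted p under 0.05, beside 11.4% of all genes. Blocking on the tenocyte line, 2 were DE there, *SPRY3* (adjusted p = 0.00912, limma) and *IER3* (0.0110), where 5.18% of all genes were. Between IL-1β + IL1Ra and either other condition 0 were DE, with 2 at an unadjusted p under 0.05 in each comparison, beside 5.67% of all genes against control and 2.78% against IL-1β. With the block 0 were DE. An unadjusted p under 0.05 was then found for 7 against control and 5 against IL-1β, beside 13.4% and 8.38% of all genes.

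Among the 5 other MAPK phosphatases, *DUSP16*, which encodes a phosphatase of JNK and p38, rose in the first batch from 1375 ± 731 to 2587 ± 628 normalised counts (SD, n = 5 lines), by 1.04 on the log2 scale (SE 0.34, adjusted p = 0.0415, limma). *DUSP7*, which encodes a close relative of DUSP6 that also acts on ERK, went from 2842 ± 691 to 1654 ± 406 (SD, n = 5 lines). Its log2-fold change of −0.79 (SE 0.21, adjusted p = 0.0170, limma) was below the fold required for DE. *DUSP7* was again lower in the second batch, at −0.88 (SE 0.23), with an adjusted p of 0.175 (limma) and 0.0394 with the line as a block. *DUSP2*, *DUSP8* and *DUSP9* had adjusted p from 0.0708 to 0.944 in the first batch (limma). Mean *DUSP8* was 388 in controls and 524 with IL-1β there. In the second batch it was 173 in controls, 444 with IL-1β and 238 with IL-1β + IL1Ra. Second-batch *DUSP16* had 1148 ± 873 in controls and 1527 ± 901 with IL-1β (SD, n = 3 lines each). Without the block, 0 of the 5 had an adjusted p under 0.05 between IL-1β and control in that batch (limma).

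Of the 5 other Sprouty and Spred genes, *SPRY3* alone was DE in the first batch. It rose from 13.7 ± 5.84 to 103 ± 51.5 normalised counts (SD, n = 5 lines), by 2.75 on the log2 scale (SE 0.48, adjusted p = 0.00233, limma). Second-batch levels were 12.5 ± 4.07 in controls, 114 ± 39.6 with IL-1β and 45.1 ± 34.8 with IL-1β + IL1Ra (SD, n = 3 lines each). Its log2-fold change from control to IL-1β there was 3.07 (SE 0.58, adjusted p = 0.0818, limma), and from IL-1β to IL-1β + IL1Ra −1.52 (SE 0.58, adjusted p = 1.00). *SPRED3*, a Sprouty-related inhibitor, had a log2-fold change of −0.48 in the first batch (SE 0.17, adjusted p = 0.0591, limma).

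All 8 other p38 kinases and p38 upstream genes had negative log2-fold changes in the first batch, where 7407 of 14719 genes did, but 0 were DE by limma. By both the adjusted and the unadjusted p 2 were under 0.05, where 27.7% and 39.5% of all genes were. These 2 were *MAP3K7*, at −0.59 (SE 0.10, adjusted p = 0.00241, limma), and *MAPK11*, which encodes p38β, at −0.75 (SE 0.23, adjusted p = 0.0327). *MAPK13*, which encodes p38δ, had the most negative value of the list, −0.84 (SE 0.88, adjusted p = 0.514), at 25.3 ± 22.7 normalised counts in controls and 16.7 ± 21.1 with IL-1β (SD, n = 5 lines). Of these 8, 4 were negative in the second batch and 0 were DE. An unadjusted p under 0.05 was found for 1, beside 11.4% of all genes (with the block 2, beside 22.2%).

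The p38 substrates split in direction. *RPS6KA5*, which encodes the chromatin kinase MSK1, rose from 141 ± 20.3 to 320 ± 111 normalised counts (SD, n = 5 lines), by 1.12 on the log2 scale (SE 0.24, adjusted p = 0.00694, limma). *MKNK2*, which encodes a kinase of the translation factor eIF4E, fell from 3267 ± 1206 to 1487 ± 285 (SD, n = 5 lines), by 1.08 (SE 0.25, adjusted p = 0.00988, limma). These were the 2 DE genes of 8, with 6 at an adjusted p under 0.05, where 27.7% of all genes were. *RPS6KA4*, which encodes MSK2, was just under the fold required, at −0.99 (SE 0.11, adjusted p = 0.000189, limma). In the second batch 0 of the 8 had an adjusted p under 0.05 between IL-1β and control (limma), with or without the line as a block. An unadjusted p under 0.05 was found there for 2, beside 11.4% of all genes, and with the block for 5, beside 22.2%.

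Of 8 genes that commonly follow ERK activity, 2 were DE in the first batch, both upwards. *IER3*, an early response gene that NF-κB also regulates, rose from 11243 ± 12478 to 132162 ± 58989 normalised counts (SD, n = 5 lines), by 4.09 on the log2 scale (SE 0.65, adjusted p = 0.00144, limma). *ETV4*, a transcription factor of the ETS family, rose from 3668 ± 1178 to 7581 ± 1980.5 (SD, n = 5 lines), by 1.07 (SE 0.25, adjusted p = 0.00987, limma). *FOSL1* and *EGR1* had adjusted p of 0.0984 and 0.208 (limma). Second-batch *IER3* had a log2-fold change of 3.85 (SE 1.55, adjusted p = 0.398, limma) and *ETV4* 0.39 (SE 0.39, adjusted p = 0.815).

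In the ERK cascade itself 0 of 11 genes were DE in the first batch by limma (4 at an unadjusted p under 0.05, where 39.5% of all genes were), and the log2-fold changes lay between −0.40 for *MAPK3* and 0.44 for *MAP2K2*. In the JNK cascade 0 of 6 tested genes were DE by limma (3 at an unadjusted p under 0.05, beside the same 39.5%), and the largest change was that of *MAP3K1*, 0.51 (SE 0.28, adjusted p = 0.202). *MAPK9*, which encodes JNK2, followed at −0.39 (SE 0.13, adjusted p = 0.0412).

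**Figure D4:**
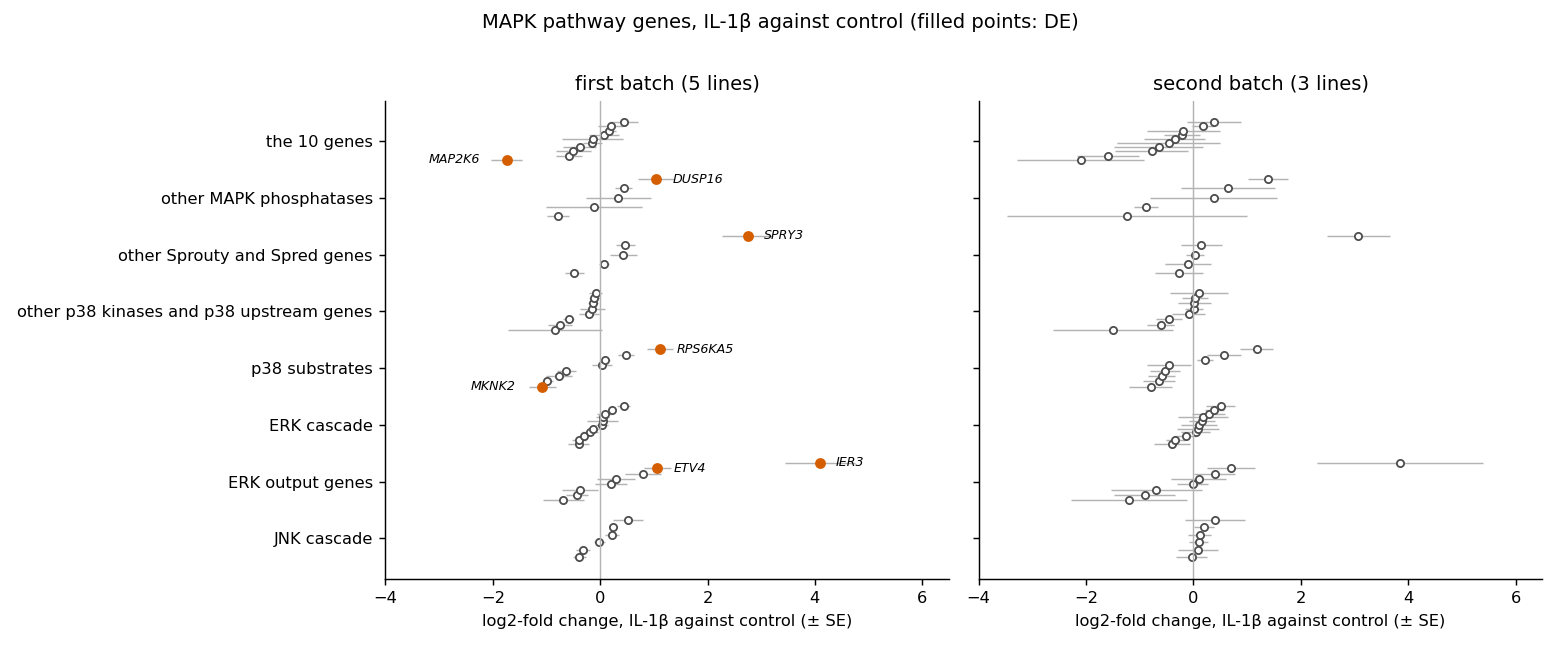
Log2-fold change with its SE (x axis) between IL-1β and control for the 10 genes and for each tested gene of the 7 pathway lists (y axis), in the first batch (left) and the second batch (right); filled points are DE. *IER3* (4.09) and *SPRY3* (2.75) are the largest rises among the listed genes in the first batch, and no point is filled in the second.

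Genes whose pattern was most like that of a named gene were ranked by the smaller of the Pearson correlations over the 10 first-batch and the 9 second-batch libraries, among 12360 genes. These libraries share conditions and lines, so the values are a description. For *DUSP6* the nearest were *F2RL1* (r of 0.874 and 0.951) and *HHEX* (0.926 and 0.847). *SPRY4* had the closest matches of the genes ranked, *TMEM51* (0.945 and 0.962) and *FGF1*, a growth factor that signals through receptor tyrosine kinases (0.950 and 0.924). Among the closest matches of *DUSP4* was C23H9orf40 (0.951 and 0.881), and *DUSP1* was nearest to *APH1A* (0.822 and 0.828) and *BLMH* (0.772 and 0.853). *MAP2K6* was nearest to *INPP5A* (0.881 and 0.889) and *SGIP1* (0.875 and 0.891). *MAPK14* had the weakest matches, among them *IL1R1*, the signalling receptor of IL-1 (0.758 and 0.750).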

How the data were processed

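The signal values deposited by the authors are DESeq2-normalised counts: reads of stranded mRNA libraries were assigned to EquCab3.0 transcripts with Salmon, summed to genes with tximport and divided by size factors with DESeq2 1.36 in R 4.2.1, each batch alone. All columns were mapped to samples (0 unmapped). Whole reads were not recovered: only 64.0% to 73.3% (first batch) and 56.0% to 73.8% (second batch) of values under 10 per library lay within 0.05 of a whole read, so no count model was fitted and counting intervals are not given.

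From these, log2(normalised count + 1) was fitted with limma 3.58.1 (lmFit, eBayes with trend) in R 4.3.3, after a filter that kept genes reaching 10 normalised counts in 5 or more first-batch or 3 or more second-batch libraries, with Benjamini-Hochberg adjustment over all genes tested. The second batch was 1 fit of 3 conditions. Confidence intervals are those of limma. The scripts were tested on simulated data.

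Libraries of a line come from 1 donor line, so line numbers pair them. The main fits did not use this pairing. Between IL-1β and control, the SE of *DUSP4* in the second batch was 1.18 without and 0.49 with the line as a block. For *MAP2K6* in the first batch it was 0.29 and 0.32. Deviations from condition means correlated at 0.35 to 0.58 (5 pairs) and 0.54 to 0.79 (9 pairs) within lines, and at −0.36 to 0.29 (20 pairs) and −0.62 to 0.25 (18 pairs) between lines.

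The 10 genes, the pathway lists and the markers were chosen with earlier results of these data known. From the pathway lists the text names each DE gene, the 2 largest changes per list in the first batch and genes needed to explain a count. For 6 of the 10 genes it names those of the 2 with the most similar pattern that are reported here, and some are not reported here. Marker lists held tenocyte (8 genes, 7 in the tables), leukocyte (6), endothelial (4), muscle (4) and pericyte (4) genes. Summed endothelial markers ran from 9.75 to 81.6 normalised counts in the first batch, with 2 of the 4 under 10 throughout. Summed muscle markers, mostly *DES*, ran from 1108 to 2231 in first-batch controls and from 53.7 to 207 with IL-1β. Gene symbols matched a RefSeq table of another assembly, so no coordinates are given. Alternatives were other pseudocounts, filters and scalings, no trend, only the conditions compared, the line block and leaving out each line.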

Additional observations from a re-analysis of the deposited data

How the results depend on the processing

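The counts of the 10 genes that were DE, 1 in the first batch and 0 in each second-batch comparison, were the same under every alternative run, leaving out each line included. Between IL-1β and control this is no support for the counts, since the 10 genes were chosen with that comparison known. With the tenocyte line as a replicate block, the pathway genes DE between IL-1β and control in the second batch went from 0 to 2, and leaving out each line gave 0 to 1 (1 without line 6). The block changed no other count of DE genes among the 10 or the pathway lists. Among pathway genes in the first batch leaving out each line gave 4 to 6 in place of 6. The causes were not tested, though each fit that left out a line had fewer libraries.

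Equal library sums moved the median log2-fold change of all genes to −0.19 for IL-1β against control and 0.11 for IL-1β + IL1Ra against IL-1β in the second batch. Between IL-1β and control 2 signs turned under another setting and 167 were kept: *DUSP4* in the first batch (0.062 with quantile normalisation) and *MAPK14* in the second (−0.0077 with equal library sums). In the IL1Ra comparisons 4 turned and 174 were kept: *SPRY2* between IL-1β + IL1Ra and control (−0.0088 with equal library sums), and against IL-1β *DUSP5* (−0.0034 with quantile normalisation) and *MAPK14* (0.077 with equal library sums and 0.0046 with quantile normalisation). Leaving out a line turned 7 signs and kept 73 between IL-1β and control, and turned 8 and kept 52 in the IL1Ra comparisons. Between IL-1β and control the ranges that crossed 0 were, in the first batch, −0.021 to 0.31 for *DUSP1*, −0.30 to 0.020 for *DUSP4* and −0.036 to 0.19 for *SPRY2*, and in the second −0.15 to 0.75 for *DUSP1*, −0.88 to 0.22 for *DUSP10* and −1.02 to 0.064 for *MAP2K6*. Between IL-1β + IL1Ra and control the ranges were −0.27 to 0.78 for *DUSP10*, −0.087 to 0.36 for *SPRY2*, −0.55 to 0.0037 for *SPRY4* and −0.49 to 0.54 for *MAP2K6*. Against IL-1β they were −0.46 to 0.62 for *DUSP5* and −0.040 to 0.43 for *SPRY2*. The SE of each of the 10 genes was larger in the second batch than in the first. The second batch had 3 lines a group and lower sums of counts, and the cause of the larger SE was not tested.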
